A study of Mus musculus with 6 samples.

Results

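Windows of Runx2 occupancy were examined at 5 genes of connective tissue collagens in mouse chondrocytes: Col3a1 (collagen III), Col5a1 and Col5a3 (chains of collagen V), Col6a3 (a chain of collagen VI) and Col12a1 (collagen XII). The genes were chosen by the windows themselves: a window of at least 1 of the 2 deposited lists named the gene as nearest, or, for Col6a3, lay inside the gene body. These genes held 7 of the 2000 windows, 3 of the 1000 in IL-1β and 4 of the 1000 in normal culture, at 5 sites. The number of windows and their ranks are therefore given as a description, and no test was made on them.

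An anti-FLAG antibody was used for chromatin immunoprecipitation and sequencing (ChIP-seq) of primary chondrocytes from Runx2-Biotin-3xFLAG knock-in mice, 5 days old and of strain C57BL/6 in the labels (C57BL/6J in the study's methods), so that DNA occupied by the tagged protein is recovered. Cells exposed to the inflammatory cytokine interleukin-1β (IL-1β) were set against cells in normal culture, and both carried the tag. For IL-1β the labels state 1 ng per µL, and the study's methods give that number per mL. There were 6 libraries, 1 each of anti-FLAG, control IgG and input DNA per condition, and each list came from 1 anti-FLAG library set against the input of its condition. No replicate error can be given with 1 library in each condition, and differences are between these 2 libraries. The lists give windows of 100 bp numbered from 1 to 1000, without read counts or scores, so the depth behind a window is unknown. The number of a window is called its rank, and rank 1 is the first window of a list. The lists hold the first 1000 peaks of more that were called, so a window that is missing from a list may have been ranked lower. The nearest genes of the windows do not measure expression. Of 7 chondrocyte marker genes, 3 were named in IL-1β and 4 in normal culture, and of 7 fibroblast and perichondrium markers 0 were named in IL-1β and 1, Thy1, in normal culture, while 4.04% of all protein-coding genes were named in IL-1β and 4.11% in normal culture. By the nearest gene in GENCODE M1, a gene annotation built on mm9, the chondrocyte counts were 2 in IL-1β and 4 in normal culture, and the fibroblast and perichondrium counts 0 in both.

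Collagens are proteins of the extracellular matrix built from chains that wind into a triple helix. Collagen III is a fibrillar collagen of skin, vessels and other soft connective tissue, collagen V joins fibrils of other collagens and regulates their assembly, collagen VI forms beaded filaments around cells, and collagen XII lies on the surface of fibrils as a fibril-associated collagen with interrupted triple helices (FACIT). In cartilage the main fibrils are made of collagens II, IX and XI, while collagen VI is known for the pericellular matrix around chondrocytes. Runx2 is a transcription factor that binds the hexamers TGTGGT and TGCGGT and drives chondrocyte hypertrophy and bone formation.

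The sequences of the 5 sites are shown because the occupied DNA and its Runx hexamers are what the sites can be compared on. Each is the plus strand of the mouse assembly mm9, 5′ to 3′, and capitals mark TGTGGT or its reverse complement. Where both lists had a window, the joined stretch of both windows is given. The last line gives the bases that follow the Col5a1 window, because its hexamer lies there.
Col3a1, IL-1β, chr1:45370880-45370980: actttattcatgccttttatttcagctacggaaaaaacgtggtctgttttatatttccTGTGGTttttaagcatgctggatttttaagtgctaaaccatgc
Col5a1, normal culture, chr2:27795044-27795144: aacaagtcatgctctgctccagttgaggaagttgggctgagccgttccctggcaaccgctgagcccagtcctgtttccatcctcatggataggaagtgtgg
Col5a3, both lists, chr9:20569870-20570001: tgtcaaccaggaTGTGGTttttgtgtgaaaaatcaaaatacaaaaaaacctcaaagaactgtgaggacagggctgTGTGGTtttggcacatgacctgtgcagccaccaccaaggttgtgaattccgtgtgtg
Col6a3, both lists, chr1:92697224-92697352: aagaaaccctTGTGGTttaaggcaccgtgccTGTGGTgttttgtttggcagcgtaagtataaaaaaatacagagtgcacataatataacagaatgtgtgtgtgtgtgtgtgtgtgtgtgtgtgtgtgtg
Col12a1, normal culture, chr9:79456240-79456340: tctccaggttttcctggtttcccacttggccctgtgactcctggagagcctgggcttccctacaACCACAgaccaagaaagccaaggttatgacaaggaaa
Col5a1, bases after the window, chr2:27795145-27795164: cctgaTGTGGTttgggacag

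The 5 sites lay away from the transcription start site (TSS) of the longest coding transcript, and at different places in their genes. In GENCODE M1 the sites in Col3a1, Col5a1 and Col6a3 were intronic, the Col12a1 window was centred on an exon, and the Col5a3 windows lay past the 3′ end of the gene. The Col3a1 window was 2.55 kb from the TSS, and the other sites were between 43.0 and 110 kb from the TSS of the longest coding transcript. Starts of shorter transcripts were nearer at Col6a3 (1.80 kb in IL-1β and 1.82 kb in normal culture) and at Col12a1 (4.49 kb). The genes were between 38.2 and 153 kb long. As background, a window lay in the gene body of 2.02% of the 22380 protein-coding genes in IL-1β and of 1.94% in normal culture. Among the 6117 genes that were at least as long as Col3a1, the shortest of the 5, these shares were 4.95% in IL-1β and 4.69% in normal culture. Nothing is read from these shares for the 5 genes, since the windows chose them.

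**Figure D1:**
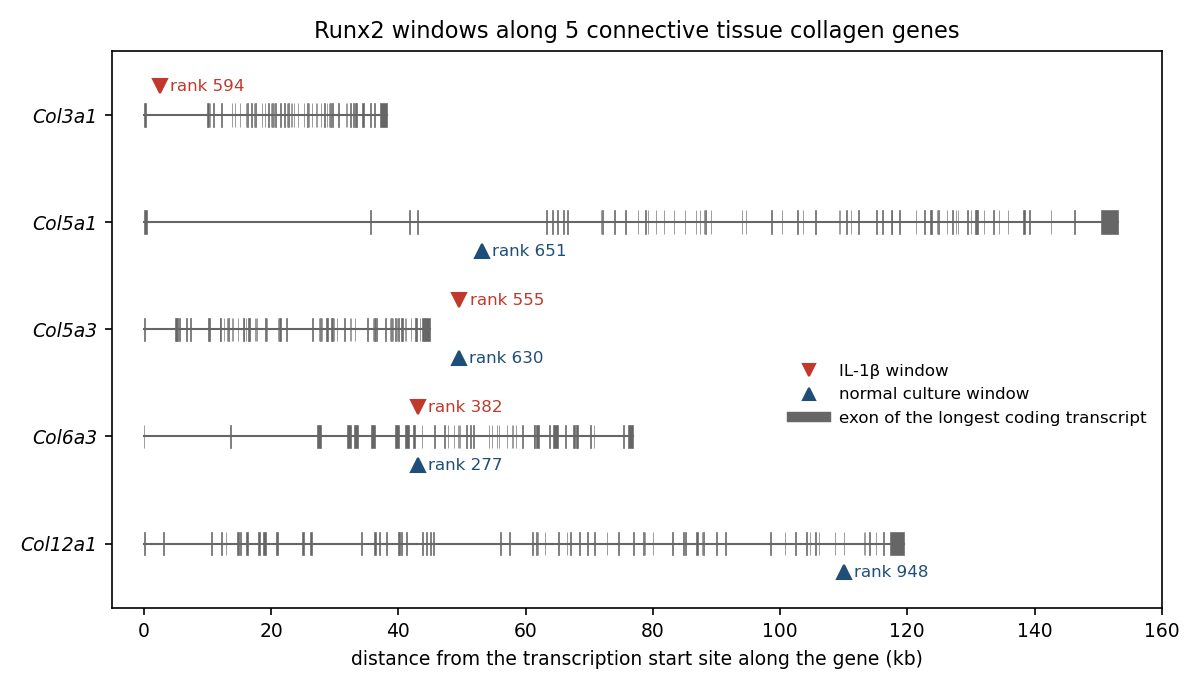
Maps of the 5 collagen genes drawn to scale, with exons as boxes. The horizontal axis gives the distance in kb from the TSS of the longest coding transcript. Marks give the Runx2 windows of IL-1β and of normal culture, and the Col3a1 window lies 2.55 kb from the TSS while the Col5a3 windows lie 4.57 and 4.54 kb past the gene's 3′ end.

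Collagen VI had the highest-ranked site, and it was found in both conditions. Col6a3 encodes the largest of the common chains of collagen VI. Its window had rank 382 in IL-1β (chromosome 1, 92697252 to 92697352) and rank 277 in normal culture (chromosome 1, 92697224 to 92697324). The windows overlapped by 72 bp, counted as end minus start, and their centres were 28 bp apart. Both lists name Mlph as the nearest gene (transcript NM_053015), but Mlph was 114 kb away. Both windows lay in intron 9 of the 43-exon coding transcript of Col6a3, an intron of 1135 bp, at 43.0 kb from its TSS in IL-1β and 43.1 kb in normal culture. The start of a shorter Col6a3 transcript was 1.80 kb from the window in IL-1β and 1.82 kb in normal culture. In IL-1β the window held 1 hexamer, and in normal culture it held 2, because the first hexamer of the printed sequence lies outside the IL-1β window. The starts of those hexamers were 21 bases apart. The IL-1β window also ran into a TG repeat of 36 bases, against a longest run of 8 bases in normal culture. Repeated 32-base words of that repeat had up to 1026967 copies in the genome, but the median word of either window had 1 copy.

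Collagen V gave 1 site in both lists and 1 in normal culture alone. Col5a3 encodes the α3 chain, which has a narrower distribution than the other chains of collagen V. Its window had rank 555 in IL-1β (chromosome 9, 20569870 to 20569970) and rank 630 in normal culture (chromosome 9, 20569901 to 20570001). The windows overlapped by 69 bp, again counted as end minus start, with a centre shift of 31 bp. They lay 4.57 kb past the 3′ end of the gene in IL-1β and 4.54 kb in normal culture, outside any protein-coding gene, and the next such gene, Olfm2, was 37.2 kb away in IL-1β and 37.3 kb in normal culture. The IL-1β window held 2 hexamers and the normal culture window held 1. The starts of both hexamers were 63 bases apart, and the hexamer that was in both windows is the second of the printed sequence. A far higher-ranked window near Eif3g, a translation initiation factor subunit, was 133 kb away, with rank 33 in IL-1β and rank 12 in normal culture.

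Col5a1 encodes the α1 chain, which is present in most collagen V molecules. Its window was listed in normal culture with rank 651 (chromosome 2, 27795044 to 27795144) and not in IL-1β. It lay in intron 4, an intron of 20.1 kb, of the 66-exon transcript NM_015734, at 53.1 kb from the TSS in GENCODE M1. The nearest IL-1β window had rank 748, was named Rxra and was 174 kb away. This was the window of the 7 that held no Runx hexamer. A TGTGGT began 6 bases past its last base, and is in capitals in the last printed line.

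Collagen III was listed in IL-1β alone. Col3a1 encodes the single chain of collagen III, and its window had rank 594 (chromosome 1, 45370880 to 45370980). It lay in intron 1, of 9.66 kb, of the 51-exon transcript NM_009930. The nearest normal culture window had rank 973 and was 1545 kb away, near Uxs1. Col5a2, the gene of another collagen V chain and the next protein-coding gene, was 60.2 kb from the window. The window held 1 hexamer. Its GC content of 34.7% was low for the list: 1.80% of IL-1β windows were lower.

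Collagen XII was listed in normal culture alone, near the end of the list. The Col12a1 window had rank 948 (chromosome 9, 79456240 to 79456340). Its centre was in exon 60 of 66 of transcript NM_007730, an exon of 72 bp from 79456227 to 79456298, and 59 bases of the window were inside that exon. The window was 110 kb from the TSS and 4.49 kb from the start of a shorter Col12a1 transcript. Its hexamer, on the minus strand at 79456304 to 79456309, was in intron 59, 6 bases from the edge of exon 60. The nearest IL-1β window, near Tmem30a, had rank 866 and was 185 kb away.

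**Figure D2:**
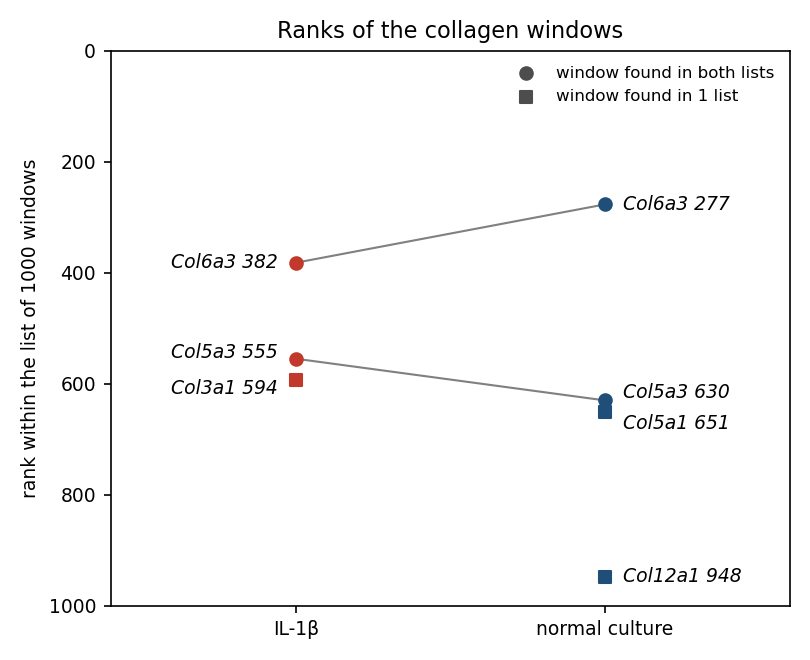
Ranks of the collagen windows in IL-1β and in normal culture, with the rank within the list of 1000 on the vertical axis, lines joining a site found in both lists and squares for a window of 1 list. Col6a3 has ranks 382 and 277 and Col5a3 has ranks 555 and 630, while Col3a1 (594) is in the IL-1β list alone and Col5a1 (651) and Col12a1 (948) are in the normal culture list alone.

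The lists shared 2 of the 3 IL-1β windows (exact 95% binomial interval 9.43 to 99.2%) and 2 of the 4 normal culture windows (6.76 to 93.2%), where sharing is an overlap of at least 1 bp. The same 2 sites are counted in both shares. The intervals, here and for the hexamers below, cover counting error only. They treat the windows as independent draws, which windows picked by gene need not be. Over all windows the shared percentage was 55.1% of the IL-1β list and 55.1% of the normal culture list. Sharing was more frequent at higher ranks: of the 500 highest-ranked windows, 375 in IL-1β and 366 in normal culture were shared, against 176 in IL-1β and 185 in normal culture of the other 500. Among the windows within 50 ranks of each collagen window, the number shared in IL-1β was 69 of 100 around Col6a3, 51 around Col5a3 and 45 around Col3a1. In normal culture it was 75 of 100 around Col6a3, 47 around Col5a3, 54 around Col5a1 and 23 around Col12a1. Windows in 1 list alone were thus common at the ranks of Col3a1, Col5a1 and Col12a1, and these genes are not shown to differ between the conditions.

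The rank of the Col6a3 site was larger by 105 in IL-1β than in normal culture, and that of the Col5a3 site smaller by 75. The study called more peaks in normal culture than in IL-1β, so an equal rank need not mean equal strength in both lists. Over the 551 shared pairs the median absolute difference was 141, and 60.4% of pairs differed by more than Col6a3 and 69.7% by more than Col5a3. The centre shifts of 28 and 31 bp compared with a median of 20 bp over the shared pairs, of which 35.2% had a larger shift than Col6a3 and 31.6% a larger shift than Col5a3. Neither site stood apart from the other shared windows by rank or by position.

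A Runx hexamer was present in 3 of the 3 IL-1β windows (exact 95% binomial interval 29.2 to 100%) and in 3 of the 4 normal culture windows (19.4 to 99.4%). The share over all windows was 59.7% in IL-1β and 63.4% in normal culture, against 9.40% in IL-1β and 8.15% in normal culture for stretches of the same length 1000 bp to each side. At this number of windows the collagen windows cannot be told from the other windows of their lists. The 5 sites held 6 hexamers and all 6 were TGTGGT, with no TGCGGT, while TGTGGT made up 75.9% of the hexamers of all windows in IL-1β and 75.2% in normal culture. In the reading direction of the hexamer, the letters were TGTGGTTT in Col3a1, at both Col5a3 hexamers and at the first Col6a3 hexamer, TGTGGTTG in Col12a1, and TGTGGTGT at the second Col6a3 hexamer. Over all windows a TGTGGT was followed by T in 55.6% of cases in IL-1β and 54.2% in normal culture. A match of letters is a description and does not show that the protein was bound there.

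**Figure D3:**
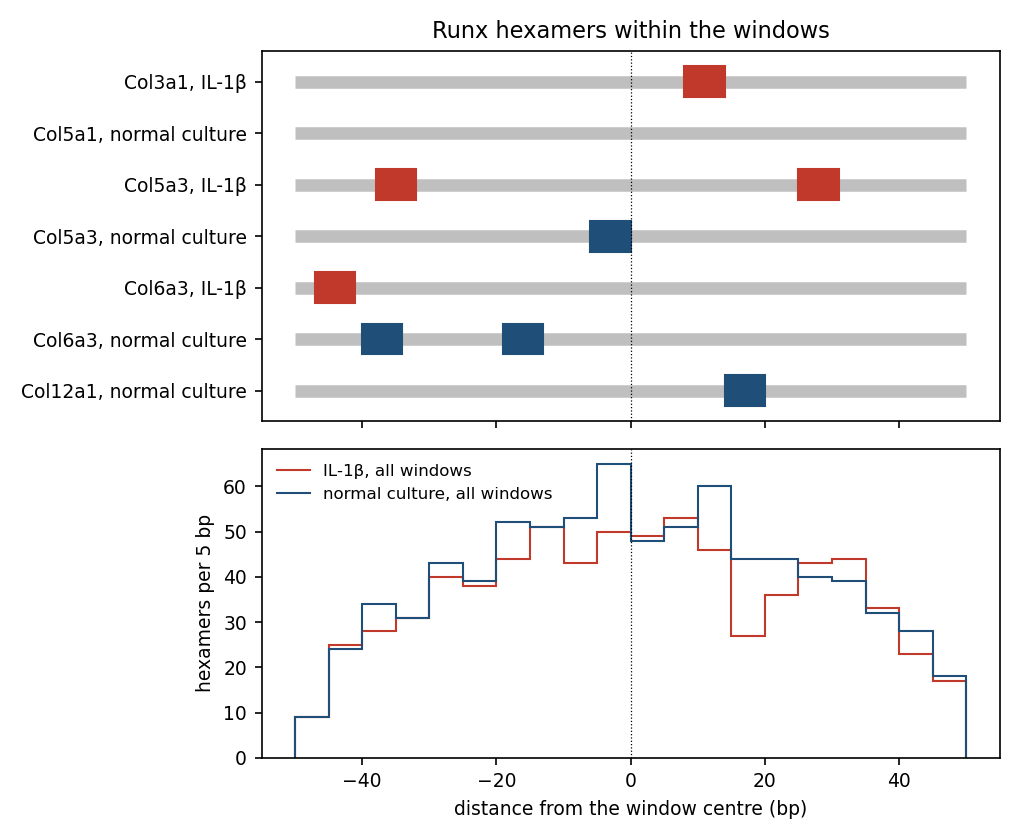
Positions of the Runx hexamers in the collagen windows, in bp from the window centre, for IL-1β (red) and normal culture (blue) windows, above the number of hexamers per 5 bp over all windows of each list. The Col5a1 window holds none, and the median distance from the centre over all windows with a hexamer is 18 bp in IL-1β and 16 bp in normal culture.

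Other letter patterns were searched on both strands, with N for any base. The Sox pattern ACAANG was found in 0 of the 3 IL-1β windows and in 2 of the 4 normal culture windows, those of Col6a3, where it overlaps the first Runx hexamer, and of Col12a1. Over all windows it was found in 14.2% in IL-1β and 15.2% in normal culture (flanks 18.6% in both). The AP-1 pattern TGANTCA (7.80% of IL-1β and 7.90% of normal culture windows), the TEAD pattern GGAATG (11.8% in IL-1β and 13% in normal culture), the C/EBP pattern TTGCNNAA (5.70% in IL-1β and 4.4% in normal culture) and the ETS pattern CCGGAA (5.90% in IL-1β and 7.70% in normal culture) were in none of the 7. An NF-κB pattern was in none of the 7 in a longer form of 10 letters, found in 0.700% of IL-1β and 0.800% of normal culture windows, nor in the same form without its first G, GGNNTTTCC, found in 3.0% of IL-1β and 3.90% of normal culture windows. The shorter form was added after the counts of the longer one had been seen.

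The base composition of the sites varied. GC content was 40.6% in IL-1β and 39.6% in normal culture at Col6a3, 41.6% in IL-1β and 46.5% in normal culture at Col5a3, 34.7% at Col3a1, 55.4% at Col5a1 and 52.5% at Col12a1. The median over all windows was 52.5% in IL-1β and 53.5% in normal culture. The windows of Col3a1, Col5a3, Col6a3 and Col12a1 were below the median of their lists and Col5a1 was above it. All 7 windows had a median of 1 genome copy of their 32-base words.

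The wider collagen family was described from a list of 44 genes. The IL-1β list named 6 of them and the normal culture list 9, and 3 (Col5a3, Col11a1 and Col27a1) were named by both. The share of all genes that both lists named was not counted, so nothing is read from the 3. The share of all 21900 protein-coding genes that was named was 4.04% in IL-1β and 4.11% in normal culture. Without the 5 genes above, which the lists themselves chose, 4 of 39 collagens were named in IL-1β (10.3%) and 6 of 39 in normal culture (15.4%). These shares were not matched for gene length and enrichment was not tested. Genes at least as long as Col3a1 held a window in their body more frequently than all genes did. By group, and again without the 5 genes, 2 of 8 fibrillar collagens were named in IL-1β and 3 of 8 in normal culture, 1 of 8 FACIT collagens in IL-1β and 2 of 8 in normal culture, and 1 of 9 network collagens in each. The FACIT counts leave out Col22a1, whose windows carry the name 1700010C24Rik. By the nearest gene in GENCODE M1 they were 2 of 8 in IL-1β and 3 of 8 in normal culture. No beaded filament collagen was named in either list. The Col6a3 windows carry the name Mlph, and none of the other 6 was the nearest GENCODE M1 gene of a window. None of 4 transmembrane collagens and none of 4 remaining collagens was named in either list. Col11a1, a fibrillar collagen of cartilage, had a window of rank 644 in IL-1β, 2.19 kb away, and of rank 614 in normal culture, 2.14 kb away. Col27a1, another fibrillar collagen of cartilage, had rank 650 in IL-1β and rank 358 in normal culture. Col2a1 (rank 398), Col9a1 (rank 615) and Col9a2 (rank 943), which encode chains of the main cartilage fibrils, were named in normal culture alone. Windows at these genes may have been ranked below the end of the IL-1β list, and a loss in IL-1β was not tested. The Col2a1 window in normal culture lay 0.09 kb outside the gene, and so not in intron 6. A peak in intron 6 may have been ranked below the end of either list. The paper reports a Runx2 peak in that intron. From reporter assays it proposes that Runx2 could activate Col2a1 through that intron, intron 1 and the region around the TSS. It also places Col2a1 among candidate Runx2 targets in inflamed chondrocytes, by nearness to Runx2 peaks and by reduced expression in Runx2 knockout. In the IL-1β list the nearest window to Col2a1 had rank 954 and was 248 kb away.

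The partner chains and related collagens below were chosen after their values were seen, and their nearest windows were 60.2 kb away or farther. The other common chains of collagen VI, Col6a1 and Col6a2, were 825 and 712 kb from the nearest window in IL-1β and at those distances in normal culture too. Col5a2 was 60.2 kb from the nearest window in IL-1β, the Col3a1 window, and 1606 kb from that in normal culture. Col1a1, whose product forms fibrils with collagens III and V, was 968 kb from a window in IL-1β and 306 kb in normal culture, and Col1a2 was 2261 kb away in both. Col14a1, a relative of collagen XII, was 546 kb away in both.

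**Figure D4:**
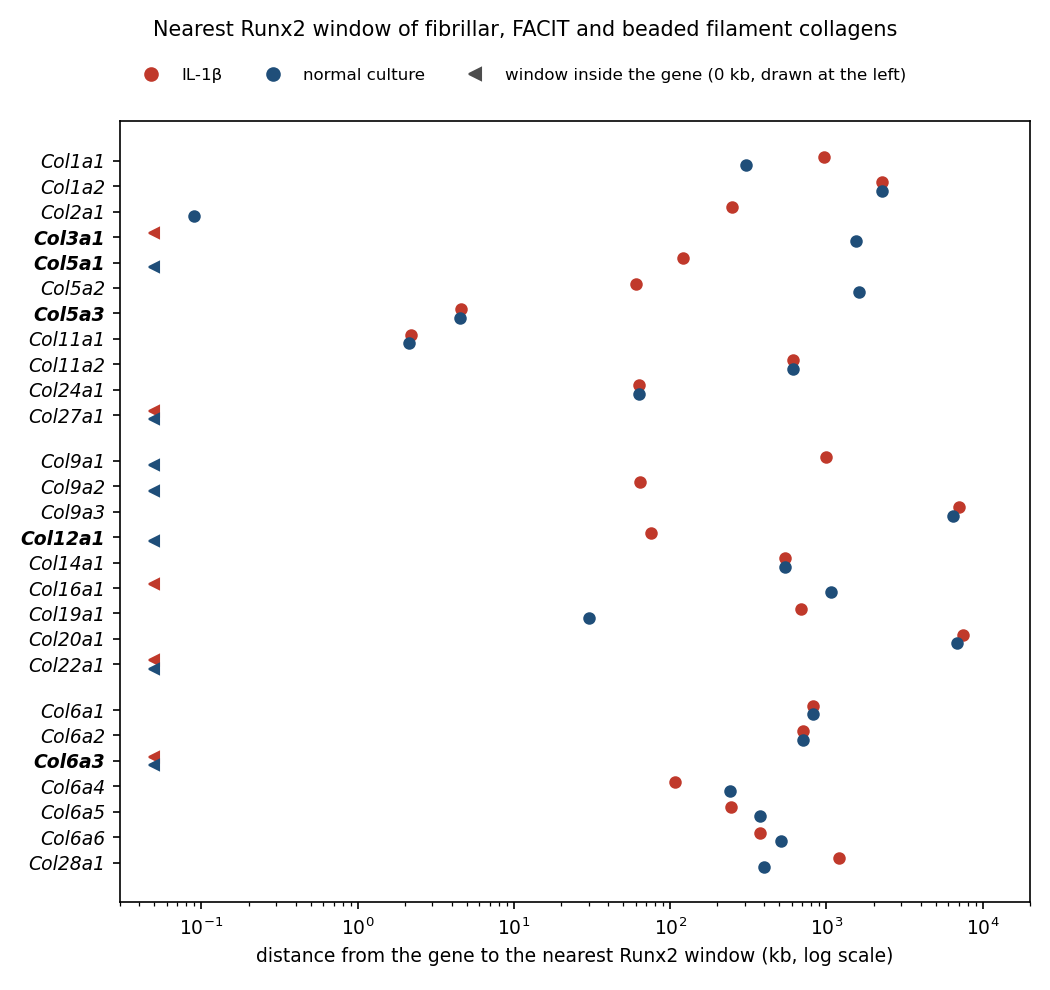
Distance in kb, on a logarithmic axis, from each fibrillar, FACIT and beaded filament collagen gene to the nearest Runx2 window in IL-1β (red) and in normal culture (blue), where triangles at the left stand for a window inside the gene, and the names of the 5 connective tissue collagens are in bold. Col5a2 lies at 60.2 kb in IL-1β and 1606 kb in normal culture.

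Of 31 partners of collagen fibrils and filaments, 6 were named in IL-1β and 7 in normal culture. Among all protein-coding genes 4.04% were named in IL-1β and 4.11% in normal culture. The partners were listed with earlier results of these data known. Their shares were not matched for gene length, and enrichment was not tested. Both lists named 4 partners (Thbs1, Tgfbi, Fn1 and Ddr2), of which Fn1 and Ddr2 by different windows. The share of all genes that both lists named was not counted. A window lay in the gene body of 2 of the 31 in IL-1β and of 3 in normal culture, beside 2.02% of all genes in IL-1β and 1.94% in normal culture. Ddr2 encodes a receptor for fibrillar collagens, and its body held a window of rank 890 in IL-1β and a different one, of rank 526, in normal culture, neither of which overlapped a window of the other list. Tnxb encodes a matrix protein that binds collagen fibrils, and its body held a window of rank 374 in IL-1β and of rank 251, under the name Crebl1, in normal culture. Tgfbi, which encodes a collagen-binding matrix protein, had a window 3.76 kb away in IL-1β (rank 916) and 3.75 kb away in normal culture (rank 463). Thbs1, which encodes thrombospondin, was named by a window of rank 195 in IL-1β, 380 kb away. In normal culture 2 windows named it, with a best rank of 113, and the nearest was 152 kb away with rank 750. Fn1, which encodes fibronectin, was named by different windows, at rank 889 and 235 kb away in IL-1β and at rank 624 and 0.342 kb away in normal culture, and GENCODE M1 has another gene nearer to each. Matn1 (rank 918, 160 kb away) was named in IL-1β alone. Prelp (rank 53, 20.7 kb away), Itga11 (rank 563, inside the gene) and Comp (rank 859, 1.48 kb away) were named in normal culture alone.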

How the data were processed

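Primary chondrocytes were prepared from 5-day-old Runx2-Biotin-3xFLAG knock-in mice (strain C57BL/6 in the labels, C57BL/6J in the study's methods). The submitters' processing notes name Bowtie2 2.2.2 and mm9. Peak calling by the authors used CisGenome, comparing each anti-FLAG library with its own input, 1 call for each condition, and the nearest transcript was added. The deposited lists give the score of a window only as its rank number, with other columns for position and transcript. IgG libraries were not used here. Whether coordinates count from 0 or 1 is not stated, and they were read from 1, as 101 bases per window.

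The 5 genes and the gene lists were chosen with earlier results of these data known. Genes were named by a rule: the 5 collagens, other listed collagens or partners that a list names or whose body holds a window, and the next protein-coding gene of each site. Partner chains with no window, and genes named at neighbouring windows, were added after their values were seen. Of the genes named by the authors, 884 of 893 in IL-1β and 901 of 912 in normal culture were matched to a RefSeq table, and places were read from GENCODE M1. Motifs were searched on both strands with pysam 0.24.0 (Python 3.11.15, numpy 2.4.6), genome copies of 32-base words were counted with numba 0.67.0, and figures were drawn with matplotlib 3.10.9. Shares of the 5 genes carry exact 95% binomial intervals. No test between conditions was made. The scripts were tested on simulated data. Alternatives were the nearest GENCODE M1 gene, the 500 highest-ranked windows, other overlaps, other hexamers, wider windows, coordinates from 0 and, added after the data were seen, the gene named in the list alone and the shorter NF-κB pattern.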

Additional observations from a re-analysis of the deposited data

How the results depend on the processing

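Of 24 alternatives, 17 left the counts within the limits used and 7 moved them. Counts within those limits could still change. By the nearest gene in GENCODE M1, collagens named were 8 of 44 in IL-1β and 11 of 44 in normal culture, in place of 6 and 9. Among the 500 highest-ranked windows the collagen windows were 1 in IL-1β and 1 in normal culture, in place of 3 and 4, and collagens named were 0 of 44 in IL-1β and 2 of 44 in normal culture, in place of 6 and 9. Set against the 500 highest-ranked windows of the other list, 1 of the 3 IL-1β windows and 1 of the 4 normal culture windows was shared, in place of 2 and 2. These alternatives use fewer windows. With windows widened by 100 bp on each side, a Runx hexamer was in 4 of 4 normal culture windows in place of 3, where 80.2% of all normal culture windows then held one. With the gene named in the list alone, chosen after seeing the data, the collagen windows were 2 in IL-1β and 3 in normal culture, since Col6a3 is not named. No paired analysis was possible because there was 1 anti-FLAG library per condition. The unknown depth and the missing lower part of each list limit what the absence of a window can show.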

Other observations

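Among the other collagens, the highest-ranked window in a gene body was in Col22a1, a FACIT collagen of tissue junctions, with rank 52 in IL-1β and rank 41 in normal culture. It lay in intron 38 of 64 exons, 144 kb from the TSS, held 2 Runx hexamers in each list, and is named 1700010C24Rik in both. Col16a1, another FACIT collagen, had a window in intron 42 with rank 597 in IL-1β alone, and Col8a2, a network collagen, had one in intron 2 with rank 917 in IL-1β alone. Col4a2, a basement membrane collagen, had one in intron 4 with rank 860 in normal culture alone. These 3 windows held 0 Runx hexamers each, as did 40.3% of all IL-1β windows and 36.6% of all normal culture windows.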
